A study of Mus musculus with 11 samples.

Results

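The 500 widest peaks of trimethylated lysine 4 of histone H3 (H3K4me3) in wild-type (WT) day 2 mouse embryoid bodies are described here. They were chosen by the length column of the WT H3K4me3 peak list, on chromosomes 1 to 19, X and Y, with ties taken by chromosome and then by start. They made up 500 of 9836 WT peaks, which is 5.08% of the peaks and 12.5% of the bases called in WT. Their widths ran from 1215 to 2964 bases with a median of 1411.5, and those of the other 9336 WT peaks from 217 to 1214 bases with a median of 494. The WT widths chose the members and are given as a description only.

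H3K4me3 is placed on nucleosomes at active and poised promoters by the MLL and SET1 methyltransferase complexes, in which WDR5 is a shared scaffold subunit. Most promoters carry a short block of the mark just after the transcription start, and a minority carry a broad block that extends into the gene. Broad blocks in embryonic stem cells are known to lie at genes of cell identity, such as pluripotency regulators, and at other highly transcribed genes.

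The study profiled chromatin by CUT&RUN, in which an antibody bound to chromatin directs a nuclease that releases the bound fragments for sequencing. The genotypes were Wdr5 knockout (KO), a Wdr5 and p53 double knockout (DKO) and WT, with 1 H3K4me3 list each. Every group came from embryonic stem cells with GFP knocked into the Rx gene (an eye field transcription factor), which were aggregated by SFEBq, a serum-free method towards anterior neural tissue, with 5% KSR. All groups lost doxycycline at day 0 and received 2% matrigel at day 1, and each CUT&RUN took 2 µg of antibody to 2 M (mega) cells. The sources used here do not state what doxycycline controlled or whether a genotype came from more than 1 clone. WDR5 and P53 antibodies had 2 lists each in DKO and in WT.

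The H3K4me3 libraries held 22.3 M fragments in KO, 43.2 M in DKO and 34.2 M in WT. They gave 918 peaks in KO, 6418 in DKO and 9836 in WT. A peak was at least as long as the estimated fragment, which was 261 bases in KO, 202 in DKO and 217 in WT. Genotype, depth and fragment size therefore cannot be told apart, and with 1 library per genotype no difference between genotypes has a replicate check or a test. Fewer cells with the mark and less of the mark per cell cannot be told apart either. Shares carry Wilson 95% intervals, which cover counting error only. At the edge of the selection, the last peaks inside were 1215 bases wide and lay at a proline tRNA gene (n-TPcgg3), at Hadha and Hadhb and at Crebl2. The first peaks outside were 1214 bases wide and lay at Ahctf1, at Cdc42ep4 and at Tubgcp4 and Zscan29.

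Promoter sequence is shown first for 6 members, the widest 2 with a start site inside the peak in each of 3 classes. The classes were a peak in both KO and DKO, a peak in DKO but not in KO, and no peak in either. Each sequence holds 250 bases before and 50 bases after a RefSeq start site on GRCm38.p6, the assembly named mm10. Capitals mark CG dinucleotides, also written CpG.
Proser1, chr3:53463545-53463844, plus strand, peak in KO and DKO: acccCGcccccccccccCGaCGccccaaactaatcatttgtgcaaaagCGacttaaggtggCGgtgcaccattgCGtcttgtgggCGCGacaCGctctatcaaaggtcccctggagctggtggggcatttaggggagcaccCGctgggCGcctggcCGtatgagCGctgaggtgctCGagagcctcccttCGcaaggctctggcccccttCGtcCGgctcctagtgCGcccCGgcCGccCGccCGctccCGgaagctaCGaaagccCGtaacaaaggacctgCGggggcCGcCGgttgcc
Pou5f1, chr17:35505782-35506081, plus strand, peak in KO and DKO: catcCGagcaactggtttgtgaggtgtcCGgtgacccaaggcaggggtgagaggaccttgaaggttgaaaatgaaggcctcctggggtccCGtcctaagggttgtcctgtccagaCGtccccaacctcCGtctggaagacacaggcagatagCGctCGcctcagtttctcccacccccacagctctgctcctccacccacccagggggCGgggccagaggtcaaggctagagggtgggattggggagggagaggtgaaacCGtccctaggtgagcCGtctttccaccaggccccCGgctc
Pde12, chr14:26669797-26670096, minus strand, peak in DKO but not in KO: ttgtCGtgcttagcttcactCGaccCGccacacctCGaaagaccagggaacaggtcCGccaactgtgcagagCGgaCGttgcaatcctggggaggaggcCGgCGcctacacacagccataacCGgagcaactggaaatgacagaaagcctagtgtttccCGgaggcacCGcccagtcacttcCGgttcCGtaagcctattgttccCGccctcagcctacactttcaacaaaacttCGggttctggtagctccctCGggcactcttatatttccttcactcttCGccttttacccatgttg
Spred2, chr11:19924192-19924491, plus strand, peak in DKO but not in KO: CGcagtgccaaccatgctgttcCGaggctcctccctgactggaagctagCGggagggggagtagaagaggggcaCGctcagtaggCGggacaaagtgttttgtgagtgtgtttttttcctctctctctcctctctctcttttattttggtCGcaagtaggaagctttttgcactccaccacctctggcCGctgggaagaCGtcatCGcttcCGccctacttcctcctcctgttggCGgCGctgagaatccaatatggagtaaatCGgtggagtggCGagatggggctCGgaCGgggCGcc
Cachd1, chr4:100776429-100776728, plus strand, no peak in KO or DKO: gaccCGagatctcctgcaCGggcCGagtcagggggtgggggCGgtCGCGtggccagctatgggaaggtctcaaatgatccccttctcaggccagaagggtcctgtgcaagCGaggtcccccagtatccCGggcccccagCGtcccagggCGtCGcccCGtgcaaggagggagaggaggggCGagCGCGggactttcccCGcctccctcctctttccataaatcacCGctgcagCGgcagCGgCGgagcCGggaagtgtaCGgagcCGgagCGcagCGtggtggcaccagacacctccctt
Foxp4, chr17:47924583-47924882, minus strand, no peak in KO or DKO: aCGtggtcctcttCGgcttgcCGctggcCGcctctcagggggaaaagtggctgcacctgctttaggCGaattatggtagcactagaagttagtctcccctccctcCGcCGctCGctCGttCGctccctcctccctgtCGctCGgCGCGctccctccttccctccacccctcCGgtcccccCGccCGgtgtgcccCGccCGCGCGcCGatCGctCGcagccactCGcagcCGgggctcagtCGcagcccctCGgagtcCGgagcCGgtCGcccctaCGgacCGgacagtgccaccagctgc

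The number of CG dinucleotides was 28 at Proser1, 11 at Pou5f1, 18 at Pde12, 17 at Spred2, 25 at Cachd1 and 33 at Foxp4. The Foxp4 promoter, with the most CG, had no peak in either knockout list, and the Pou5f1 promoter, with the fewest, had one in both. In these 6 promoters the count of CG therefore did not follow the class.

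Over whole sets, 1 promoter was taken per protein-coding gene with a start site in the RefSeq table. The 478 promoters at the widest peaks had a median GC content of 63%, against 62.7% for the 6216 promoters at other WT peaks and 51.3% for the 10534 promoters with no WT peak. The observed over expected CpG ratio was 0.85 (quartiles 0.738 and 0.954) at the widest peaks, against 0.818 (quartiles 0.681 and 0.945) at other WT peaks and 0.299 where there was no WT peak. The quartile ranges of the widest and the other marked promoters overlapped almost fully. Within the widest peaks the median ratio was 0.891 for the 138 promoters with a peak in KO and DKO, 0.834 for the 274 with a peak in DKO only and 0.763 for the 59 with a peak in neither. At other WT peaks the same classes had 0.873, 0.833 and 0.796, which is the same order.

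Short motifs were searched on both strands of these promoters as exact letters, each on its own, so that 1 base can count towards several motifs. The GC box GGGCGG, bound by SP factors, was found in 64.4% of promoters at the widest peaks, 72.1% at other WT peaks and 46.8% of all 17491 promoters. The ETS motif CCGGAAG was found in 27.6% at the widest peaks, 22.2% at other WT peaks and 12% of all. The CCAAT box, CCAAT, was found in 35.6%, 39.5% and 38.9% of the same sets. The TATA box TATAAA was found in 6.07% at the widest peaks, 5.16% at other WT peaks and 13.2% of all. The E-box CACGTG was found in 7.32%, 10.8% and 7.89% of the same sets, and the NRF1 motif GCGCATGCG in 3.56%, 4.21% and 2.37%. A match is a run of letters, not a bound site.

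**Figure D1:**
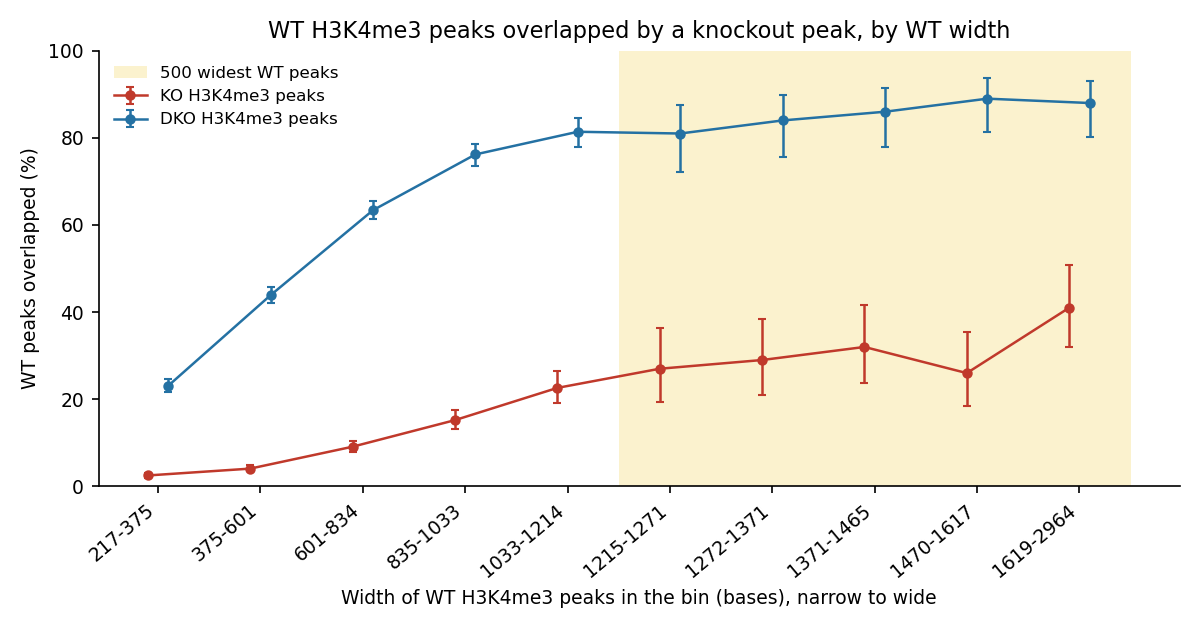
Share of WT H3K4me3 peaks overlapped by a KO or DKO peak (vertical axis, percent, with Wilson 95% intervals) in bins of WT width from narrow to wide (horizontal axis, bases); the shaded bins are the 500 widest. The KO share is 2.5% in the narrowest bin and 41% in the widest, and the DKO share is 23.1% in the narrowest and 88% in the widest.

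The widest WT peaks had a knockout peak more often than the other WT peaks, in KO and in DKO. A KO peak overlapped 155 of the 500 widest peaks by at least 1 base (31%, interval 27.1 to 35.2), against 640 of 9336 other peaks (6.86%, interval 6.36 to 7.39). Over all WT peaks the KO share was 8.08%. A DKO peak overlapped 428 of the 500 widest peaks (85.6%, interval 82.3 to 88.4), against 4409 of 9336 other peaks (47.2%, interval 46.2 to 48.2), and over all WT peaks the share was 49.2%. A wide interval is easier to touch than a narrow one, so the overlap at a single base was also measured. The WT summit base lay inside a KO peak at 21.4% of the widest peaks and 5.74% of the others, and inside a DKO peak at 70.4% of the widest and 38.4% of the others.

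The share grew with WT width over the whole list. Inside the 500, the KO share was highest among the 100 widest, and the DKO share stayed between 81 and 89%. In steps of 100 peaks from the widest, the KO share was 41, 26, 32, 29 and 27%, and the DKO share was 88, 89, 86, 84 and 81%. The next 500 peaks, 1033 to 1214 bases wide, had 22.6% in KO and 81.4% in DKO. The interval of that DKO share, 77.8 to 84.6, contained the share of the last 100 members, and that of the KO share, 19.2 to 26.5, overlapped the interval of the last 100 members, 19.3 to 36.4. No step was therefore seen at the edge of the selection. As shares of each knockout list, 163 of the 918 KO peaks (17.8%) and 533 of the 6418 DKO peaks (8.3%) lay on one of the widest WT peaks.

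The difference between KO and DKO in these shares depended on the length of the lists. When the DKO list was cut to its 918 peaks with the highest −log10 q, the number in the KO list, the DKO share of the widest peaks was 28%, against 31% for the KO list. The same cut gave 8.09% in DKO at the other WT peaks, against 6.86% in KO. The higher DKO share over the full lists was therefore not seen with lists of equal length, and how much of the list length came from genotype or from depth was not tested.

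The widest peaks were also somewhat higher in WT, with a median fold enrichment (pileup over the local background of the library, the authors' value) of 5.04, against 4.37 for the others. Within 5 bins of equal numbers of WT peaks by fold enrichment, the widest peaks had the higher share in each bin and both knockouts. In the highest bin, 35.4% of 158 widest peaks and 18.1% of 1809 others had a KO peak, and 92.4% and 77.8% of them had a DKO peak. In the middle bin, from 4.17 to 4.71, KO shares were 28% of 118 widest peaks and 4.36% of 1787 others, and DKO shares were 80.5% and 46.7%. With the summit base in place of any overlap, the highest bin gave 30.4% and 16.1% in KO, and 84.8% and 71.9% in DKO. The lowest bin held 16 of the widest peaks, of which 7 had a KO peak, with an interval of 23.1 to 66.8%.

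**Figure D2:**
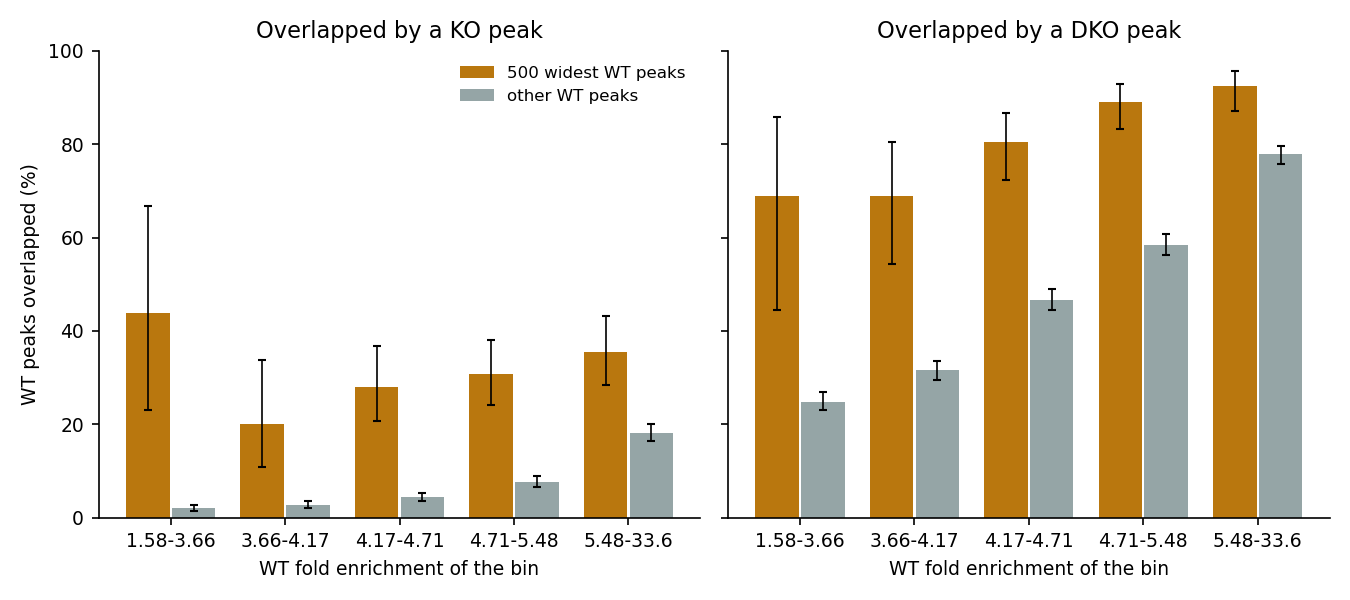
Share of WT peaks overlapped by a KO peak (left) and by a DKO peak (right) in 5 bins of WT fold enrichment (horizontal axis); bars are the 500 widest and the other WT peaks, with Wilson 95% intervals. In the highest bin the KO share is 35.4% for the widest and 18.1% for the others, and the DKO share is 92.4% and 77.8%.

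Among the widest peaks themselves, WT height and width separated those with a KO peak only slightly from those without. The 155 with a KO peak had a median WT fold enrichment of 5.17 and a median WT width of 1434 bases, and the 345 without had 5 and 1405 bases. The 428 with a DKO peak had a median WT fold enrichment of 5.13 and the 72 without had 4.58. At the other WT peaks the same contrast was 5.53 and 4.33 in KO, and 4.89 and 4.04 in DKO. Both comparisons use the same WT list, so the classes that follow are a description. Of the 500 widest peaks, 149 had a peak in KO and DKO, 279 in DKO but not KO, 6 in KO but not DKO and 66 in neither.

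Where a knockout peak was present it was wider at the widest WT peaks than at the others, and it covered less of the WT interval. The KO peaks on a widest WT peak summed to a median of 573 bases (quartiles 372 and 792, n = 155), against 381 bases (quartiles 327.8 and 487.2, n = 640) at other WT peaks. The DKO peaks summed to a median of 884 bases (quartiles 573 and 1180, n = 428), against 478 bases (quartiles 336 and 681, n = 4409). The median share of the WT interval covered was 36.4% in KO at the widest peaks and 53.1% at the others, and in DKO 55.1% and 69.5%. Since the members were chosen for width in WT, a knockout width below the WT width is partly fixed by the choice. The KO width was above the WT width at 0 of 155 widest peaks and 83 of 640 others, and the DKO width at 36 of 428 and 1359 of 4409.

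The KO calls also stood apart from the DKO calls in width. At the 149 widest peaks with both, the median summed width was 589 bases in KO and 1103 bases in DKO, and DKO was the wider at 138 of them (92.6%) with a median difference of 460 bases. At the 550 other WT peaks with both, DKO was the wider at 463 (84.2%) with a median difference of 239.5 bases. The DKO library held more fragments than the KO library, and the part of depth in this difference was not tested. Of all bases called at the widest peaks in WT, KO peaks covered 13.5% and DKO peaks 48.9%, against 5.05% in KO and 36.6% in DKO at the other WT peaks.

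Many of the wide intervals were called in pieces in DKO. Of the 428 widest peaks with a DKO peak, 104 (24.3%, interval 20.5 to 28.6) carried 2 or more separate DKO peaks, against 105 of 4409 other peaks (2.38%). In KO, 8 of 155 widest peaks carried 2 or more, against 3 of 640 others. A longer WT interval has room for more separate peaks by its length alone, and the part of length in these differences was not tested. The DKO peak lay on the WT summit at 82.2% of the overlapped widest peaks and 81.4% of the overlapped others. In KO it did so at 69% of the overlapped widest peaks and 83.8% of the overlapped others.

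The widest peaks of a knockout list were in part the widest of WT. Of the 500 widest KO peaks, 461 (92.2%) lay on a WT peak and 115 (23%) on one of the 500 widest WT peaks, which they reached at 113 members (22.6%). Of the 418 other KO peaks, 48 (11.5%) lay on one of the widest WT peaks. Of the 500 widest DKO peaks, 488 (97.6%) lay on a WT peak and 153 (30.6%) on one of the widest, and they reached 153 members (30.6%). Of the 5918 other DKO peaks, 380 (6.42%) lay on a widest WT peak.

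**Figure D3:**
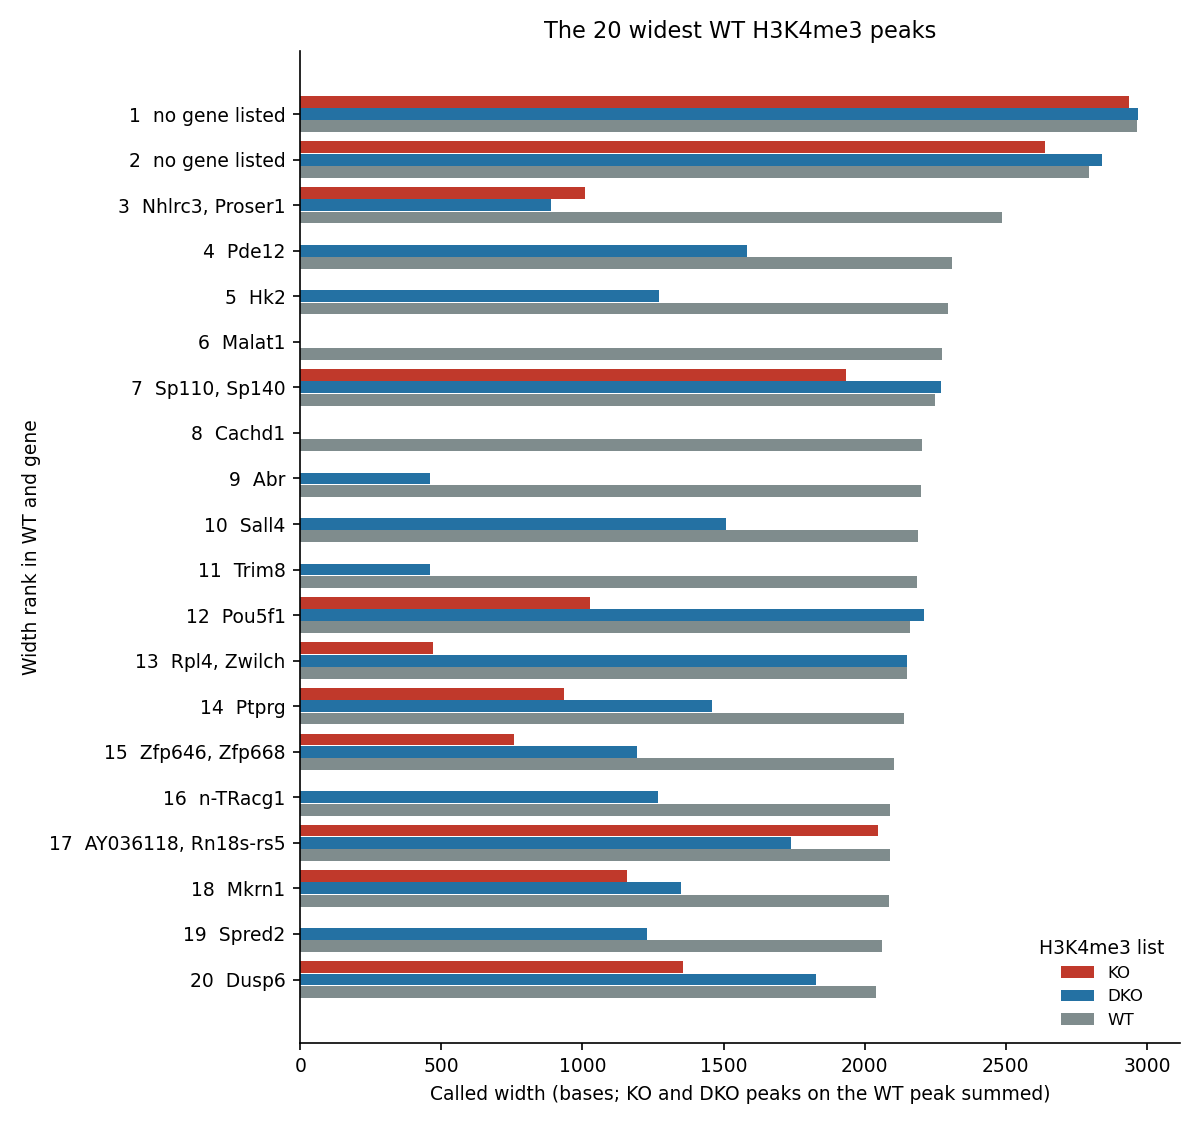
Called H3K4me3 width in KO, DKO and WT (horizontal axis, bases) at the 20 widest WT peaks, in order of WT width from the top. Ranks 1, 2, 7 and 17 have wide calls in every list, Malat1 and Cachd1 have no knockout peak, and Pou5f1 and Rpl4 have the full WT width in DKO but less in KO.

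The 20 widest peaks were of mixed kind. Rank 1 (chr9:3000031-3002994) had a called width of 2935 bases in KO, 2968 in DKO and 2964 in WT and no gene in the RefSeq table. Rank 2 (chr17:39843115-39845909) had 2638 bases in KO, 2840 in DKO and 2795 in WT. It lay next to rank 17 (chr17:39846215-39848303), which covers the ribosomal RNA gene Rn18s-rs5. Rank 7 (chr1:85591094-85593341), inside the spans of Sp110 and Sp140, had 1934 bases in KO, 2269 in DKO and 2248 in WT. All 4 were also called with the WDR5 and P53 antibodies, including the DKO lists, where the Wdr5 and p53 genes are knocked out. At rank 1 the fold enrichment was 10.5 for WDR5 and 9.77 for P53 in DKO, against 10.7 for WDR5 and 8.87 for P53 in WT. They are set apart from the promoters below for that reason.

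In all, 20 of the widest peaks (4%) were overlapped by a peak in at least 1 of the 4 DKO lists of WDR5 and P53, against 174 of 9336 other peaks (1.86%) and 1.97% of all WT peaks. All 20 had a DKO H3K4me3 peak and 15 had a KO one. The strongest was rank 294 (chr14:19416929-19418301), with a fold enrichment of 10.5 in KO, 12.9 in DKO and 12.4 in WT for H3K4me3 and 20.5 in DKO and 22.3 in WT for WDR5. Its summit pileup of 1364 fragments in WT compares with a median of 43 over the widest peaks. Leaving all 20 out, a KO peak overlapped 140 of 480 widest peaks (29.2%) and a DKO peak 408 (85%), against 6.19% and 46.7% of 9162 others. The covered share of WT bases without them was 11.9% in KO and 47.7% in DKO.

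Nearly all members lay at genes. An end of a protein-coding gene lay within 1 kb of 409 of the widest peaks (81.8%, interval 78.2 to 84.9), against 7153 of the others (76.6%, interval 75.7 to 77.5) and 76.9% of all WT peaks. With listed start sites counted as well, 448 of the widest (89.6%) and 85.5% of the others were near a gene. A further 25 of the widest (5%) lay inside a gene away from its ends and listed starts, and 27 (5.4%, against 7.02% of the others) outside protein-coding genes. More of the widest peaks reached 2 or more genes, with 133 of 500 (26.6%, interval 22.9 to 30.6) within 1 kb of the ends of at least 2, against 15.1% of the others. A longer interval meets more gene ends by its length alone. At 81 of the widest peaks (16.2%), among them Nhlrc3 with Proser1, the starts of at least 2 genes lay inside the peak, against 1.04% of the others. Start sites are those of the RefSeq promoter table, which lists 79.9% of the protein-coding genes and none on chromosome 18, where 17 members lie.

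Members were spread over the genome unevenly. Chromosome 8 held 51 of them, 8.4% of its WT peaks, and chromosome X held 1, 0.725% of its 138 WT peaks. Over all chromosomes the members were 5.08% of the WT peaks.

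More of the widest peaks than of the others contained a start site. A longer interval meets a start more often, and lies wholly on 1 side of it less often, by its length alone. The part of length in the shares below was not tested. Of the 377 widest peaks with a listed start within 1 kb, 258 (68.4%, interval 63.6 to 72.9) contained the start, against 1452 of 6561 others (22.1%). Conversely, 118 of the widest (31.3%) and 4274 of the others (65.1%) lay wholly downstream of it. Starts of 2 genes running apart from each other lay within 1 kb of 94 of the 377 (24.9%) and 735 of the 6561 (11.2%). The summit lay downstream of the start in both sets, at 84.6% of the widest and 81.5% of the others. At 166 of the widest peaks holding the start of a single gene, the median reach was 961 bases downstream and 502 upstream. The peak reached further downstream than upstream at 129 of them (77.7%). For 1199 other WT peaks of the same kind, these medians were 444 and 207 bases, and 882 (73.6%) reached further downstream.

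**Figure D4:**
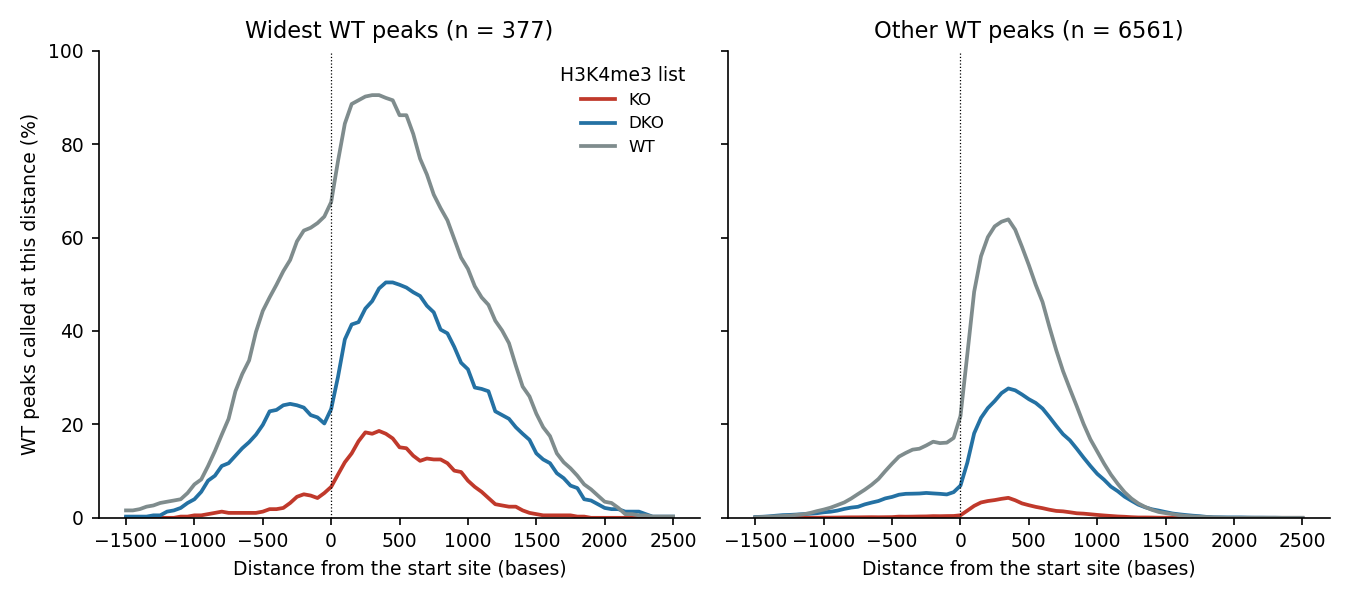
Share of WT peaks that are called at each distance from the nearest start site (horizontal axis, bases, positive downstream) in the KO, DKO and WT lists, for 377 widest and 6561 other WT peaks. At the widest peaks the KO line is highest 350 bases downstream with 18.6%, the DKO line 400 bases downstream with 50.4% and the WT line 300 bases downstream with 90.5%.

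The knockout calls lay mainly on the downstream side of these starts. At the same 166 widest peaks as above, KO peaks covered 12.9% of the WT bases downstream and 4.87% of those upstream. DKO peaks covered 51.2% and 32.2%. The 1199 other WT peaks of the same kind had 5.04% downstream and 2.11% upstream in KO, and 40.2% and 24.4% in DKO. The downstream side held 64.6% of the WT bases at the widest peaks, 82.8% of the bases called in KO and 74.4% of those called in DKO. At the other WT peaks of this kind the same shares were 67.1, 83 and 77.1%. In the profile around the start, the KO share at the start base itself was 6.63%, the DKO share 23.3% and the WT share 67.6%. The DKO share had a lower maximum upstream of the start as well, with 24.4% at 300 bases upstream.

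The genes at the widest peaks were counted against lists of named functions. A gene was counted as marked when a WT peak lay within 1 kb of an end or listed start, and by its widest such peak. Of 8384 marked protein-coding genes, 589 (7.03%) were at a widest peak. Of those 589, 180 had a KO peak there and 514 a DKO peak. The counts below are read against that share, with no test of any list.

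Pluripotency regulators had the highest share of the lists with at least 10 marked genes. Of 30 marked genes, 8 (26.7%, interval 14.2 to 44.4) were at a widest peak, and all 8 had a DKO peak and 5 a KO peak. Pou5f1, which encodes OCT4, a core factor of the pluripotent state, had a width of 1026 bases in KO, 2211 in DKO and 2161 in WT (rank 12, chr17:35505572-35507732). Its DKO peak covered the whole WT interval and its KO peak 47.5% of it. Sall4, a zinc finger factor that sustains Pou5f1 expression, had no KO peak, 1509 bases in DKO and 2190 in WT. Sox2, the partner of OCT4 at its enhancers, had 687 bases in KO, 1328 in DKO and 1806 in WT.

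Lin28a, an RNA-binding repressor of let-7 maturation, had no KO peak, 1197 bases in DKO and 1786 in WT. Tet1, a dioxygenase that oxidises methylated cytosine, had 709 bases in KO, 1036 in DKO and 1702 in WT. Jarid2, a subunit of Polycomb repressive complex PRC2, had 1153 bases in KO, 1281 in DKO and 1384 in WT. Mycn, a MYC family factor, had 357 bases in KO, 1080 in DKO and 1321 in WT, and the ligand Fgf5 had no KO peak. Among the 8 regulators the KO call was thus absent at Sall4, Lin28a and Fgf5, shortest at Mycn and widest at Jarid2. Part of the mir-290 microRNA cluster, which is highly expressed in embryonic stem cells, lies in the member of rank 357 (chr7:3217851-3219162), with 494 bases in KO, 1158 in DKO and 1312 in WT.
The hairpin of Mir290a lies inside this peak, and its mature RNAs are shown with the seed (bases 2 to 8) in capitals, from RefSeq on GRCm38.p6.
mmu-miR-290a-5p, chr7:3218639-3218660: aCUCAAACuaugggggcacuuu
mmu-miR-290a-3p, chr7:3218674-3218697: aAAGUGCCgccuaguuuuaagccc

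**Figure D5:**
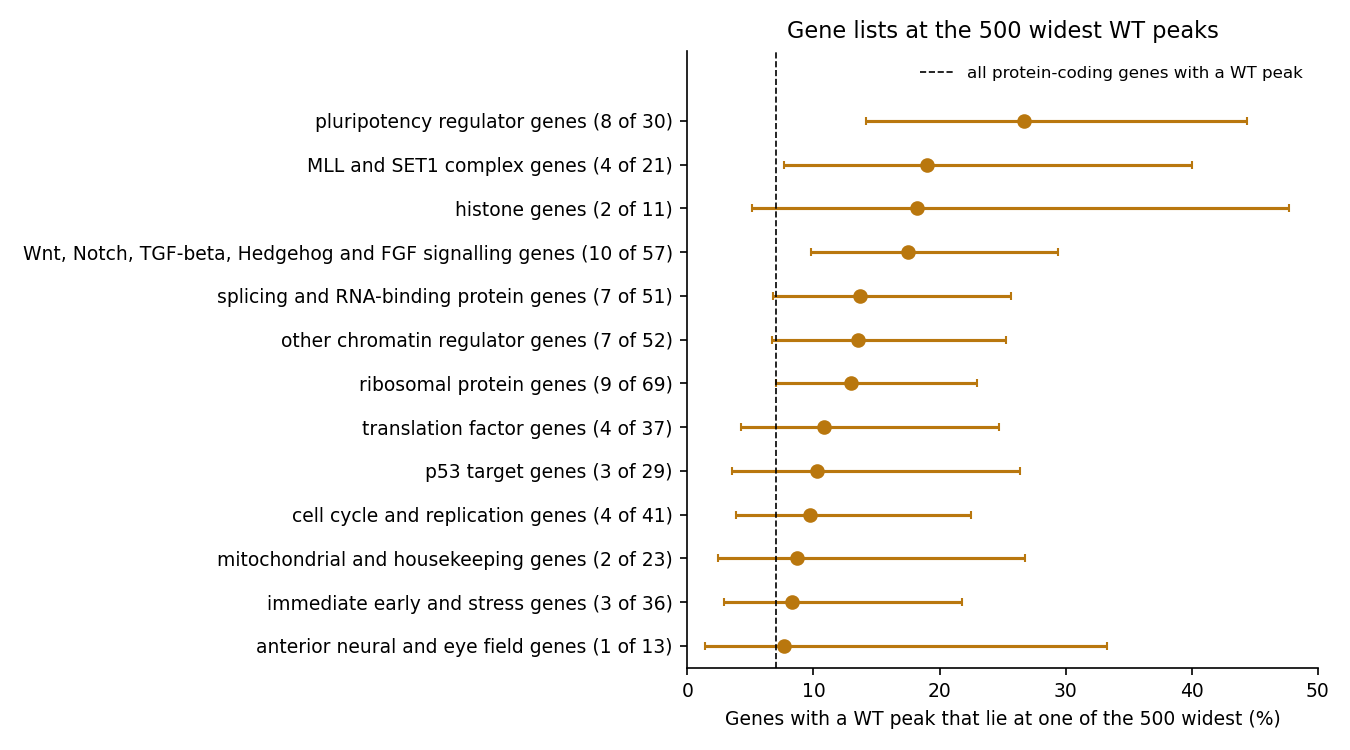
Share of marked genes of each list that lie at one of the 500 widest WT peaks (horizontal axis, percent, with Wilson 95% intervals), for lists with at least 10 marked genes; the dashed line is the 7.03% of all marked protein-coding genes. Pluripotency regulators have 26.7%, MLL and SET1 complex genes 19%, and immediate early and stress genes 8.33%.

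Genes of the signalling pathways that direct early patterning made up the largest group by number. Of 57 marked Wnt, Notch, TGF-beta, Hedgehog and FGF genes, 10 (17.5%, interval 9.82 to 29.4) were at a widest peak, 8 of them with a DKO peak and 3 with a KO peak. All 3 with a KO peak encode inhibitors of the ERK branch of FGF signalling. Dusp6, an ERK phosphatase, had 1355 bases in KO, 1829 in DKO and 2040 in WT. Dusp4, a nuclear phosphatase of the same family, had 1461 bases in KO, 2115 in DKO and 1937 in WT. Spry2, a feedback inhibitor of receptor tyrosine kinase signalling, had 1135 bases in KO, 1198 in DKO and 1535 in WT.

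The other signalling genes had no KO peak. Spred2, a further inhibitor of ERK signalling that was not on the list and is named for its rank of 19, had none either, with 1230 bases in DKO and 2061 in WT. Notch1, the receptor, had 890 bases in DKO and 1630 in WT, and Lef1, the nuclear partner of β-catenin, had 660 in DKO and 1553 in WT. The Hedgehog effector Gli2 had 280 bases in DKO and 1505 in WT, and the ligand Fgf5, a marker of primed pluripotency that is also on the pluripotency list, had 324 in DKO and 1604 in WT. The ligand gene Fgf15 and the Hedgehog transducer Smo had no peak in KO or DKO and 1423 and 1226 bases in WT.

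Genes of the methyltransferase complexes that place the mark were themselves among the members. Of 21 marked MLL and SET1 complex genes, 4 (19%, interval 7.67 to 40) were at a widest peak, all with a DKO peak and 1 with a KO peak. Rbbp5, a core subunit that binds next to WDR5, had 1135 bases in DKO and 1493 in WT. Dpy30, another core subunit, had 1374 bases in DKO and 1429 in WT, and Wdr82, a subunit of the SET1 complexes, had 1149 in DKO and 1421 in WT. None of these 3 had a KO peak. Kmt2d, an enzyme subunit, had 268 bases in KO, 452 in DKO and 1263 in WT. The knocked-out genes were compared too, since a peak there says nothing of the deletion, whose position the sources used here do not state. Trp53, which shares its region with Wrap53, was a member (rank 144) with 359 bases in KO, 819 in DKO and 1538 in WT, and Wdr5 was not (rank 1559), with 564 bases in KO, 849 in DKO and 906 in WT.

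Other chromatin regulators had 7 of 52 marked genes at a widest peak (13.5%, interval 6.68 to 25.3), 6 with a KO peak and 6 with a DKO peak. Ep300, a histone acetyltransferase, had no KO peak, 990 bases in DKO and 1789 in WT. Kdm5a, which removes methyl groups from H3K4, had 623 bases in KO, 910 in DKO and 1231 in WT. Hira, a chaperone of the histone variant H3.3, had 333 bases in KO, none in DKO and 1570 in WT. Chd8, a chromatin remodeller, had 351 bases in KO, 1064 in DKO and 1358 in WT. Histone genes had 2 of 11 marked genes there, H2ax and the H3.3 gene H3f3a, each with a KO and a DKO peak.

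Genes for RNA processing and protein synthesis had shares above 7.03%, with intervals that included it. Of 51 marked splicing and RNA-binding protein genes, 7 (13.7%, interval 6.81 to 25.7) were at a widest peak, 5 with a KO peak and all with a DKO peak. Srsf3, a splicing factor of the SR family, had 841 bases in KO, 1038 in DKO and 2034 in WT. Tra2a had 613 bases in KO, 973 in DKO and 1589 in WT, and its relative Tra2b, also an SR-like splicing factor, had 902 in KO, 1103 in DKO and 1288 in WT. Pcbp1, a poly(C)-binding protein, had 1131 bases in KO, 1215 in DKO and 1512 in WT.

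Of 69 marked ribosomal protein genes, 9 (13%, interval 7.02 to 23) were at a widest peak, 5 with a KO peak and all with a DKO peak. Rpl4, of the large subunit, had 469 bases in KO, 2151 in DKO and 2151 in WT, beside the kinetochore gene Zwilch. Rps26, of the small subunit, had 1074 bases in KO, 1279 in DKO and 1268 in WT. Rps13 and Rps7 had no KO peak, 1447 and 1426 bases in DKO, and 1619 and 1575 in WT. At Rps13 the DKO peaks covered 57.8% of the WT interval, since part of their length lay outside it. Rpl37a and Rplp2 had no KO peak, 477 and 930 bases in DKO, and 1300 and 1292 in WT. The DKO width relative to WT thus varied among the genes named here. It was slightly larger at Rps26, equal at Rpl4 and shorter at Rpl37a and Rplp2. Of 37 marked translation factor genes, 4 (10.8%, interval 4.29 to 24.7) were at a widest peak, all with a DKO peak and 2 with a KO peak, among them Eef1b2 with 683 bases in KO, 1402 in DKO and 1451 in WT.

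The remaining lists were near the background. Cell cycle and replication genes had 4 of 41 (9.76%), immediate early and stress genes 3 of 36 (8.33%), and mitochondrial and housekeeping genes 2 of 23 (8.7%). Of 29 marked p53 target genes, 3 (10.3%, interval 3.58 to 26.4) were at a widest peak, namely Pidd1, Cdkn1a and Sesn2. Cdkn1a, the cell cycle inhibitor p21 and a direct p53 target, had 591 bases in KO, no peak in DKO and 1259 bases in WT (rank 421, chr17:29093804-29095062). Its fold enrichment was 6.11 in KO and 3.75 in WT, values that are not scaled to each other. Sesn2, a p53-induced stress protein, had 930 bases in KO, 386 in DKO and 1232 in WT. Pidd1, a p53-induced death domain protein, had no KO peak, 930 bases in DKO and 1292 in WT, in a peak shared with the ribosomal gene Rplp2.

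The lists of cell types were set beside the labelled embryoid bodies as a description, with no test. A WT peak of any width lay at 30 of 45 pluripotency regulators, 13 of 38 anterior neural and eye field genes, 2 of 37 mesoderm and endoderm genes, 8 of 25 extraembryonic markers and 2 of 21 fibroblast feeder markers. Over all protein-coding genes it lay at 8384 of 21883, and the anterior neural and extraembryonic lists were near that share. Of the 39 Hox genes, 0 were marked. At a widest peak were 0 of the 2 marked mesoderm and endoderm genes, 0 of the 8 extraembryonic and 0 of the 2 feeder genes. The intervals of these shares, up to 65.8, 32.4 and 65.8%, include the 7.03% of all marked protein-coding genes. So few marked genes cannot set these lists apart from that share.

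The widest members with no knockout peak were led by a noncoding RNA gene. Malat1, a nuclear long noncoding RNA (rank 6, chr19:5800188-5802460), had 2273 bases in WT. Cachd1 and Foxp4, whose promoters are shown above, had 2203 and 1908 bases in WT. They were followed by Tbc1d1, Rnd3, the pair Ddias and Prcp, Etl4, Cdkn2c, Scaf4 and Socs2. Of this group, Cdkn2c encodes a CDK inhibitor (1675 bases in WT) and Socs2 a suppressor of cytokine signalling (1653 bases in WT). The 66 members with no peak in either knockout list had a median WT fold enrichment of 4.55, against 5.2 for the 149 with a peak in both and 5.12 for the 279 with a DKO peak only. A gene end lay within 1 kb of 69.7% of the 66, 81.2% of the 149 and 85.3% of the 279.

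Of the members with a DKO but no KO peak, the 10 widest included Sall4, Spred2 and n-TRacg1, a tRNA gene. Pde12, a mitochondrial RNA-processing enzyme, had 1583 bases in DKO in 2 peaks and 2308 in WT. Hk2, a hexokinase, had 1270 bases in DKO and 2297 in WT. Elovl6, a fatty acid elongase, had 958 in DKO and 2026 in WT, and Golph3, a Golgi phosphoprotein, had 894 in DKO and 1907 in WT. Helz, an RNA helicase, had 662 in DKO and 1961 in WT. Abr and Trim8 had the shortest DKO calls among the 10 widest of this class, 461 bases each, against 2199 and 2185 in WT.

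Apart from regions also called with the other antibodies, the largest KO widths lay at Kcnq1 and Dusp4. The Kcnq1 member (rank 23, chr7:143294479-143296486) overlaps Kcnq1ot1, an imprinted antisense RNA that silences its neighbours in cis. It had 1465 bases in KO, 1772 in DKO and 2008 in WT. Chaserr, a long noncoding RNA gene, had 1314 bases in KO, 1274 in DKO and 1409 in WT. Mkrn1, a ubiquitin ligase, had 1157 bases in KO, 1348 in DKO and 2085 in WT. Ptprg, a receptor phosphatase, is named for its WT rank of 14 and not for its KO width. It had 935 bases in KO, 1460 in DKO and 2138 in WT.

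Members with a peak in KO but not in DKO numbered 6 (1.2%, against 0.964% of the others). They were Sema6a, the pair Hira and Mrpl40, Calu, Tle4, Cdkn1a and the pair Cep44 and Fbxo8, named here in full. Their KO widths ran from 299 bases at Sema6a to 591 at Cdkn1a. Sema6a, a transmembrane guidance protein, had 1620 bases in WT, and Tle4, a co-repressor of the Groucho family, had 369 in KO and 1267 in WT.

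Transfer RNA genes, transcribed by RNA polymerase III, were another feature of members away from protein-coding genes. A tRNA gene lay in 11 of the 500 widest peaks (2.2%, interval 1.23 to 3.9), against 16 of 9336 others (0.171%, interval 0.106 to 0.278). Here too a longer interval meets more genes by its length alone, and the part of length was not tested. Of the 27 members outside protein-coding genes 10 held one. Of the 11, 8 were on chromosome 13, 4 had a KO peak (36.4%) and 10 a DKO peak (90.9%). Over all 500 members these KO and DKO shares were 31% and 85.6%. Of the 16 other WT peaks with a tRNA gene, 8 were on chromosome 13, 2 had a KO peak and 8 a DKO peak. The arginine tRNA gene n-TRacg1 had no KO peak, 1266 bases in DKO and 2091 in WT, and the valine tRNA gene n-TVaac2 had 1152 in KO, 1510 in DKO and 1627 in WT.

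WDR5 itself was called at few of the widest peaks. A peak of WT WDR5 list 1 overlapped 41 members (8.2%, interval 6.1 to 10.9), against 294 others (3.15%, interval 2.81 to 3.52) and 3.41% of all WT peaks. List 2 gave 28 members (5.6%) and 2.02% of the others, and 348 of its 450 summits (77.3%) coincided to the base with summits of list 1, so it was not counted as a separate replicate. As a share of the 725 peaks of list 1, 46 (6.34%) lay on a widest WT peak. In DKO, where the Wdr5 gene is knocked out, WDR5 list 1 overlapped 3.6% of the members and 1.46% of the others. DKO WDR5 list 2 overlapped 2.6% and 1.18%, so the widest peaks had the higher share without Wdr5 as well. A longer interval also meets more peaks by its length alone, and the part of length was not tested. Of the 41, 28 had no peak in any DKO list of WDR5 or P53. Among those 28, Cct7 with Pradc1 had the highest WDR5 fold enrichment, 8.24, followed by Rps14 with 6.85 and Eef1g with 6.84. Cct7 encodes a subunit of the chaperonin CCT, Rps14 a ribosomal protein and Eef1g an elongation factor subunit. By class, WDR5 was on 10.1% of the 149 members with a KO and a DKO peak, 8.6% of the 279 with a DKO peak only and 1.52% of the 66 with neither. At other WT peaks the same classes had 11.1%, 3.19% and 2.19%. These class shares include regions that also had a peak in a DKO WDR5 or P53 list. Such regions made up 10.1% of the 149 members, 1.79% of the 279 and 0% of the 66. At other WT peaks they made up 12.2%, 1.74% and 0.703% of the same classes. The order of the classes therefore cannot be read as an order of WDR5 binding.

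P53 was called at 9 members in WT list 1 (1.8%, interval 0.95 to 3.39), against 0.814% of the others and 0.864% of all WT peaks. WT list 2 also gave 9 members, against 0.653% of the others. In DKO, where the p53 gene is knocked out, P53 list 1 overlapped 9 members (1.8%), against 0.643% of the others. DKO P53 list 2 overlapped 11 members (2.2%), against 1.01% of the others. The higher share at the widest peaks was thus present without p53 as well, and the part of length in it was not tested. Of the 9 members in WT list 1, 8 also had a peak in a DKO P53 list. The other was Zfp809 (rank 49), a zinc finger gene that silences retroviral sequences, with a P53 peak in both WT lists, a fold enrichment of 13.8 in list 1, and no peak in either DKO P53 list.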

How the data were processed

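Per the file headers, the authors ran MACS 2.1.0.20150731 for the CUT&RUN lists (2.1.2 for list 1 of WDR5 and P53) with no control sample, a q threshold of 0.01, a local background window of 10000 bases and duplicates limited to 2 per site. Other tools in the submitters' processing notes, given without their steps, are HOMER 4.10, SAMtools 1.5, bedtools and Bowtie2, and the build is mm10. The deposited pileup is a coverage signal, the fragments at the summit with no depth scaling. Each peak's deposited fold enrichment (a ratio of pileup to local background), −log10 p and −log10 q come from the authors and serve only for description, ranking and filtering inside 1 list. Called width depends on depth, on signal over background and on the fragment size, and no spike-in is described in the sources used here.

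Peaks off chromosomes 1 to 19, X and Y were left out (3 or 4 per H3K4me3 list). An overlap is at least 1 base, and the width of a knockout is the summed length of its peaks on a WT peak. Wilson 95% intervals were used for shares, and no test was run, since each genotype has 1 H3K4me3 library. Intervals and overlaps were computed with Python 3.11.15, pandas and numpy (2.3.3 and 2.4.6) and checked on simulated intervals. Gene spans and promoters came from RefSeq tables of GRCm38.p6, whose promoter table lists 79.9% of the protein-coding genes.

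The members and the 17 gene lists (751 entries, all matched by symbol) were chosen with earlier results of these data known. Genes are named by a rule: those of the 20 widest members, of the 10 with the largest KO width, of the 10 widest with a DKO but no KO peak, of the 10 widest with neither, up to 6 of a list, and 3 on each side of the threshold. Genes outside it were chosen after their values were seen. They are Trp53, Wdr5, Gcnt2, Gli2, Fgf15, Smo, Rps26, Rpl37a, Rplp2, Kdm5a and Zfp809. The same holds for the members with a KO but no DKO peak and for the tRNA, microRNA, imprinted and WDR5-bound members.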

Additional observations from a re-analysis of the deposited data

How the results depend on the processing

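Where the other WT peaks were counted under the same alternative (250 or 1000 widest, stronger knockout peaks, equal lists, 50% coverage, a 500 base distance, the summit), the widest peaks kept the higher KO and DKO share. The share with a KO peak, 31% as reported, was 26.8% for the 1000 widest, 13.2% with KO peaks at or above the median fold enrichment of their list, 9% where at least 50% of the WT peak had to be covered, and 26.6% when WT peaks within 500 bases were joined before ranking. The share with a DKO peak, 85.6% as reported, was 57.4% with the stronger DKO peaks, 28% with lists of equal length, 49.4% with 50% of the WT peak covered, and 88.7% for members at or above the median WT fold enrichment. With the WT summit base inside a knockout peak, the shares were 21.4% in KO and 70.4% in DKO. The median DKO width, 884 bases as reported, was 990 for the 250 widest, 790 for the 1000 widest, 1087 with lists of equal length and 727 for the widest single DKO peak. The share at a gene end was 49.2% with the end inside the peak, 89.8% within 5 kb and 75.4% for start sites only. Leaving out WT WDR5 list 1 gave 5.6% with a WDR5 peak, and leaving out WT P53 list 1 gave 1.8% with a P53 peak. In all, 23 of the 41 alternatives, the P53 one among them, stayed within the interval of the reported value, for a median width the order-statistic interval of the median. The summit rule, the joining of WT peaks and the removal of members in DKO WDR5 or P53 lists were chosen after seeing the data. Stronger peaks and equal lists leave fewer peaks and the 50% and summit rules ask for more overlap; for the other moves the cause was not tested. No paired analysis was possible because each genotype has 1 H3K4me3 list. At the 22.3 M (mega) fragments of the KO list, a member without a KO peak was not detectable by the authors' threshold, which does not show that the mark is absent.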

Other observations

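Imprinted and noncoding promoters were present among the widest peaks beside Kcnq1ot1, and were picked out after their values were seen. The member at Snrpn and Snurf (rank 45), a paternally expressed imprinted locus, had 587 bases in KO, 1321 in DKO and 1818 in WT. Platr10 (rank 24), a long noncoding RNA gene named for its association with pluripotency, had 638 bases in KO, 2140 in DKO and 1962 in WT, so that its DKO call was wider than in WT. Apart from these, Gcnt2 (rank 92), a protein-coding glycosyltransferase gene, had 1629 bases in WT and no peak in KO or DKO.

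The 25 members inside genes away from ends and listed starts had a KO peak at 9 and a DKO peak at 17, against 50 and 242 of the 698 other WT peaks of that kind. The 27 members outside protein-coding genes had a KO peak at 14 and a DKO peak at 24, against 105 and 259 of 655 others, and 7 of the 27 also had a peak in a DKO WDR5 or P53 list.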
